A study of Homo sapiens with 2 samples.

Results

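The vacuolar proton pump is described here through 5 of its subunit genes: ATP6V0A1, ATP6V0A2, ATP6V0D1, ATP6V1A and ATP6V1B2. The 5 were chosen by their presence in the tables of genes with ALKBH5 peaks, so that presence is a description and not a test. They are 5 of the 5851 gene symbols that the 3 tables name in all. ALKBH5 removes the methyl group of N6-methyladenosine from RNA, and the tables come from RNA immunoprecipitation and sequencing in HL-60 cells, which are an established line of human promyelocytic leukaemia. The labels hold 2 libraries: a whole-lysate library and a library of RNA held by an antibody against ALKBH5, with 1 of each. Both library names begin with Ctrl, with no other condition beside it in the labels. Both carry the cell line HL60 and the genotype entry ALKBH5, and no treatment, time or replicate culture is given. Titles and library names disagree on which library is which, and the library names were followed. An IgG control is mentioned in the design text and was not analysed here.

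The vacuolar ATPase is a rotary motor that spends ATP to push protons into lysosomes, endosomes, phagosomes and secretory granules. Its V1 sector, on the cytosolic side, binds and splits ATP, and its V0 sector, within the membrane, carries the protons. Acid made by the pump activates lysosomal hydrolases, and the pump is also a platform on which the lysosome passes nutrient signals to the kinase complex mTORC1. In neutrophils and their precursors the pump sits on granules and phagosomes.

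A gene is called named when a deposited table of Gene Ontology (GO) terms or of KEGG pathways gives its symbol among the entries of a term. Only terms with a small p are listed, so a gene that is not named may still have had a peak. Those entries stand in a column headed Input, which holds the genes submitted to the authors' annotation test and not the input library. The tables give no level for a gene or a library, so no fold change, no spread and no depth can be stated, and no difference between immunoprecipitate and lysate was computed. Of 20056 protein-coding genes in the reference, 25.0% were named. Of 10 marker genes of myeloid precursor cells, 4 were named: MPO, PRTN3, CD33 and CEBPA. ELANE, AZU1, CTSG, CEBPE, SPI1 and MYB were not.

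The 5 subunits had 24 entries in 13 terms, of which 11 were GO terms and 2 were KEGG pathways. A single term named all 5 of them, the KEGG pathway Phagosome. A term can name only genes that its database assigns to it, so shared terms here describe annotation and not the peaks. Cytosol and endosome membrane named 3 each. Cytosol took ATP6V1A, ATP6V1B2 and ATP6V0A1, and endosome membrane took the membrane-sector genes ATP6V0A1, ATP6V0A2 and ATP6V0D1. In 3 terms 2 subunits stood together, and 7 terms named 1 subunit each. By GO branch, 8 of the 11 terms were compartments, 2 were molecular functions and 1 was a process. The median was 5 terms per subunit, against 4 over all 5614 symbols of the GO and KEGG tables (quartiles 2 and 8). For the 6 other pump genes that were named it was 2.5. The 5 were chosen by their terms in these tables, so nothing is read from the difference.

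**Figure D1:**
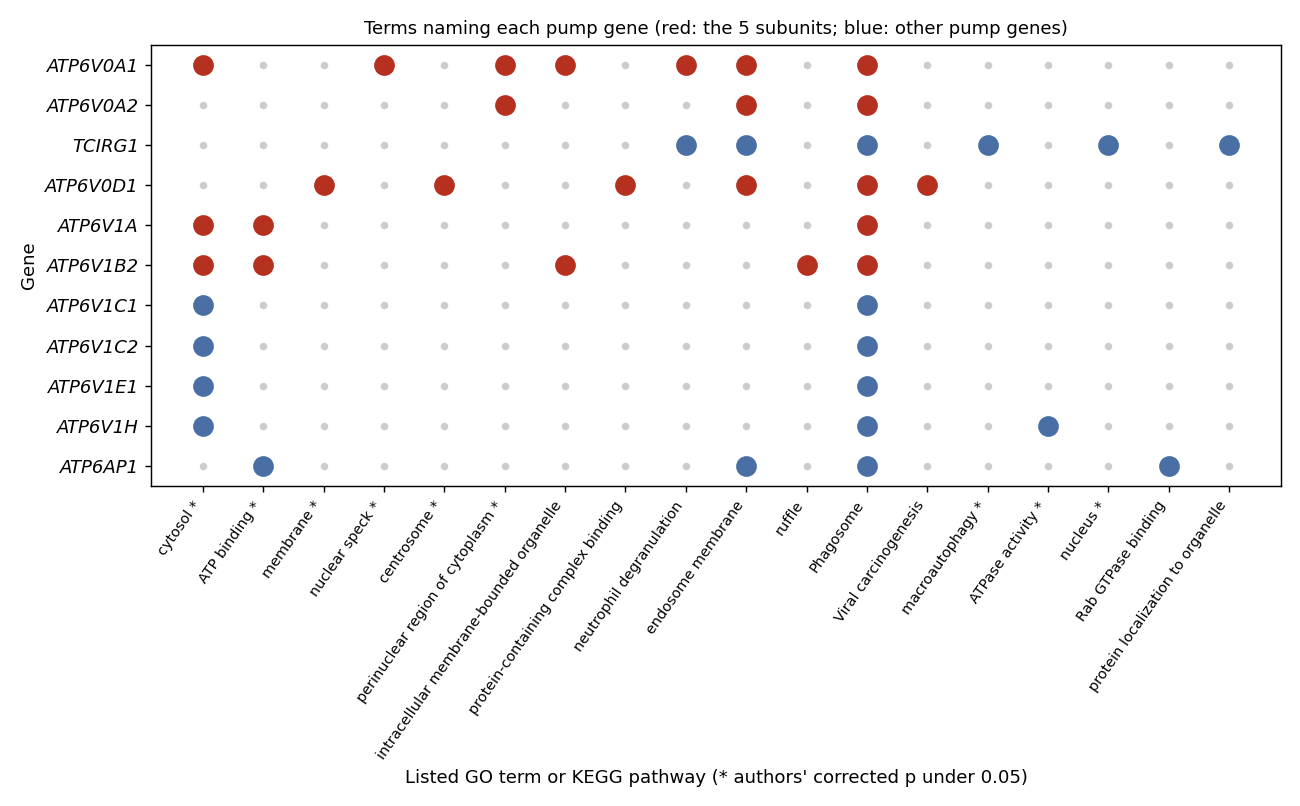
Each row is a pump gene named in the GO or KEGG table and each column a listed term; a large point marks an entry (red for the 5 subunits, blue for other pump genes) and an asterisk a corrected p under 0.05 in the authors' deposited table. The Phagosome column is filled for all 11 genes, and cytosol and endosome membrane hold mostly V1 and V0 genes respectively.

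The membrane sector was represented by 3 of the 5 genes. ATP6V0A1 encodes an a subunit, the fixed membrane part past which protons flow and which also steers the pump to its compartment. Its locus is on chromosome 17 (GRCh38.p14, 42458878 to 42522579), and it had the most entries of the 5, with 7 terms. They were cytosol, nuclear speck, perinuclear region of cytoplasm, intracellular membrane-bounded organelle, neutrophil degranulation, endosome membrane and Phagosome. Nuclear speck, a compartment rich in splicing factors, named no other pump gene.

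ATP6V0A2 encodes a second a subunit, known for its role in Golgi and endosomal acidification and mutated in an inherited form of loose skin, cutis laxa. In GRCh38.p14 it spans chromosome 12, 123712353 to 123761755. Its 3 terms were perinuclear region of cytoplasm, endosome membrane and Phagosome, and all 3 also named ATP6V0A1.

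ATP6V0D1 encodes the d subunit, which couples the membrane ring to the central stalk. It spans chromosome 16, 67438019 to 67481157 in GRCh38.p14, and had 6 terms: membrane, centrosome, protein-containing complex binding, endosome membrane, Phagosome and Viral carcinogenesis. Of these, 4 named no other pump gene. It was the only one of the 5 with entries in 2 KEGG pathways.

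The ATP-splitting sector was represented by ATP6V1A and ATP6V1B2. ATP6V1A encodes the catalytic A subunit, where ATP is hydrolysed, and spans chromosome 3, 113747035 to 113812056 in GRCh38.p14. Its 3 terms were cytosol, ATP binding and Phagosome. ATP6V1B2 encodes the widely expressed B subunit, which alternates with A around the head of the motor and binds nucleotide without being the main catalytic site. The gene spans chromosome 8, 20197381 to 20221696 in GRCh38.p14. It shared all 3 terms of ATP6V1A and had 2 more, intracellular membrane-bounded organelle and ruffle, the actin-rich folds of the cell edge. ATP6V1A and ATP6V1B2 shared 3 of the 5 terms that name either, and ATP6V0A1 and ATP6V0A2 shared 3 of 7. ATP6V0A2 shared only Phagosome with each of the V1 subunits.

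Phagosome, the pathway common to the 5, held 81 entries out of 152 background genes (53.3%). Its corrected p in the authors' deposited table was 0.218, so it did not pass a limit of 0.05. It stood 13th of the 38 listed pathways by p (0.00873) in that table. Counted by gene identifier these were 70, or 46.1% of the pathway (exact Clopper-Pearson 95% interval 37.9 to 54.3%). Pump genes were 11 of these 70 identifiers (15.7%), the other 59 being outside the pump. How many of the 152 background genes belong to the pump was not counted, so nothing is read from this share. Each of the 5 subunits stood on its own identifier, which no other symbol carried. In the tables as a whole 5.56% of identifiers carried more than 1 symbol, and in Phagosome the most loaded one, THBS1, carried 3.

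Of the 13 terms, 6 had a corrected p under 0.05 in the authors' deposited table, against 12.2% of the listed GO terms and 5.26% of the listed KEGG pathways. Which terms name a gene was part of the choice of the 5, so nothing is read from the share. They were cytosol (5.90e-11), ATP binding (6.03e-11), membrane (6.31e-10), nuclear speck (2.04e-06), centrosome (0.00108) and perinuclear region of cytoplasm (0.0204) in the authors' deposited table. Every one of the 5 subunits had at least 1 such term. ATP6V0A1 had 3, ATP6V0D1, ATP6V1A and ATP6V1B2 had 2 each, and ATP6V0A2 had perinuclear region of cytoplasm alone.

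The other 7 terms did not pass 0.05, Phagosome among them. In the authors' deposited table endosome membrane had 111 entries on 220 genes (corrected p 0.901) and neutrophil degranulation 237 on 482 (0.412). Intracellular membrane-bounded organelle had a corrected p of 0.158, protein-containing complex binding 0.202, Viral carcinogenesis 0.288 and ruffle 0.905, all in the authors' deposited table. Ruffle was the term of the 5 subunits nearest to the limit for being listed at all, with an unadjusted p of 0.0301 in the authors' deposited table, whose largest listed p was 0.0497. No listed term had proton or vacuole in its name. Of 14 listed terms named for autophagy, the lysosome, endosomes, phagocytosis, the phagosome or degranulation, 4 named a pump gene. These were Phagosome, endosome membrane, neutrophil degranulation and macroautophagy, the last only through TCIRG1, a further pump gene. Neither GO autophagy nor KEGG Autophagy - animal named any, which can follow from the genes their databases assign to them.

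Several symbols can stand on 1 gene identifier, while the background of a term counts genes, so each term was also counted by distinct identifier. In perinuclear region of cytoplasm, 359 entries on 697 genes (51.5%, exact Clopper-Pearson 95% interval 47.7 to 55.3%) became 289 identifiers (41.5%, 37.8 to 45.2%). The identifier of AMBRA1, an activator of autophagy, carried 51 of its symbols. Thus the only term under 0.05 that names ATP6V0A2 was also the one of the 13 whose share moved most. Intracellular membrane-bounded organelle went from 48.7% to 40.0% with the same 51 symbols on that identifier. Endosome membrane went from 50.5% (43.7 to 57.2%) to 46.4% (39.6 to 53.2%), and ATP binding from 56.0% to 53.2%. The intervals cover counting error only.

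**Figure D2:**
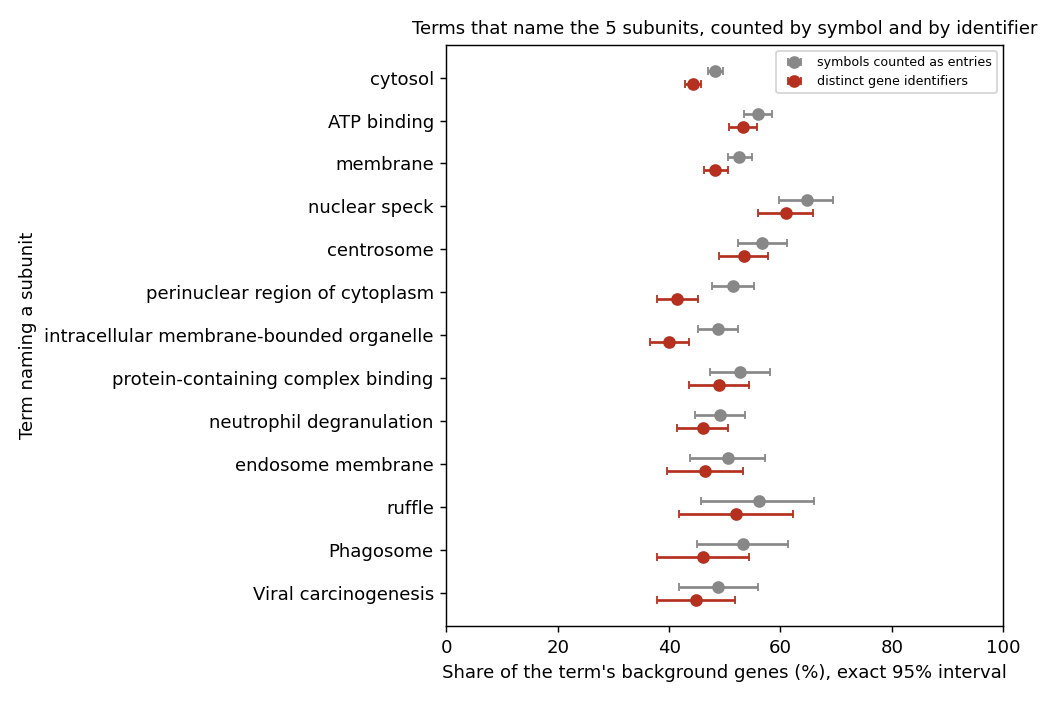
The horizontal axis gives the share of a term's background genes in percent, with exact 95% intervals, for the 13 terms naming the 5 subunits; grey points count symbols and red points distinct gene identifiers. The points part most in perinuclear region of cytoplasm (51.5% against 41.5%) and intracellular membrane-bounded organelle (48.7% against 40.0%). In these and in cytosol the intervals do not overlap. Both points count the same entries, and the red one cannot lie above the grey one in share, so the overlap is not a test.

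Beyond the 5 subunits, 6 of the 22 other genes of the pump were named (27.3%), and with the 5, 11 of 27 (40.7%). Of all protein-coding genes 25.0% were named. Taking out 5 genes chosen for being named lowers the 27.3%. The pump list was chosen with earlier results of these data known, which can raise the 40.7%. Neither share is therefore read against the 25.0%. All 11 were entries of Phagosome, and all 11 were also named in the GO table, so none depended on that pathway for being named. The other 6 were ATP6V1C1, ATP6V1C2, ATP6V1E1, ATP6V1H, ATP6AP1 and TCIRG1, the a3 subunit that acidifies the bone surface under osteoclasts. No further symbol starting with ATP6V0, ATP6V1 or ATP6AP was named, apart from a readthrough transcript.

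In V0, 4 of 11 genes were named. Of the a subunits, ATP6V0A1, ATP6V0A2 and TCIRG1 were named and ATP6V0A4, the kidney form, was not. ATP6V0D1 was named and its paralogue ATP6V0D2 was not. The proteolipids of the rotating ring, ATP6V0B and ATP6V0C, and the small subunits ATP6V0E1, ATP6V0E2 and RNASEK were not named.

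In V1, 6 of 13 genes were named. The head subunits ATP6V1A and ATP6V1B2 were joined by ATP6V1C1, ATP6V1C2 and ATP6V1E1 of the outer stalks and by ATP6V1H, which regulates ATP hydrolysis. ATP6V1C1, ATP6V1C2 and ATP6V1E1 had the same 2 terms, cytosol and Phagosome. ATP6V1H had these and ATPase activity. ATP6V1B1, the kidney form of B, and ATP6V1E2 were not named. Nor were the central stalk genes ATP6V1D and ATP6V1F or any of ATP6V1G1, ATP6V1G2 and ATP6V1G3. Counted by kind of subunit, 7 of 14 kinds had a named gene: a, d, A, B, C, E and H. Without the 5 genes chosen for being named, 4 of 14 did: a, C, E and H. That drop follows from taking out named genes, since kind A has no other gene, and nothing is read from it.

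Among the accessory genes, ATP6AP1 was named in ATP binding, Rab GTPase binding, endosome membrane and Phagosome. ATP6AP2, also known as the prorenin receptor, and ATP6AP1L were not named. The reference gives ATP6AP1L as a transcribed pseudogene, and it was kept in the pump list and its shares. In all, 14 of the 24 protein-coding genes with these 3 prefixes in the reference were not named. Neither was any of the 20 pseudogenes with them, ATP6AP1L included. The readthrough transcript, ATP6V1G2-DDX39B, had 21 entries. All of them stood on the identifier of DDX39B, an RNA helicase, so they were not counted for the pump. Of the 7 isoforms set apart as tissue-restricted, only ATP6V1C2 was named.

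Genomic length, which played no part in the choice of the 5 genes, differed between named and unnamed pump genes as a description over genes. The 5 subunits ran from 24.3 kb (ATP6V1B2) through 43.1 kb (ATP6V0D1), 49.4 kb (ATP6V0A2) and 63.7 kb (ATP6V0A1) to 65.0 kb (ATP6V1A), introns included. All 11 named genes had a median of 49.4 kb and the 16 unnamed ones of 19.8 kb. The ranges overlapped widely, from 7.84 to 128 kb for named and from 1.91 to 91.9 kb for unnamed genes. Within V1, 5 of the 7 unnamed genes were shorter than the shortest named one. Over all protein-coding genes the medians were 35.7 kb for named and 20.5 kb for unnamed genes, the same direction as in the pump. Pseudogene copies were also uneven. The reference lists none for the 5 subunits and 3 for ATP6V1E1, against 4 for ATP6V0C, 4 for ATP6V0E1, 7 for ATP6V1G1 and 1 for ATP6V1F, all unnamed. Reads of such genes can be shared with their copies, and the sources used here do not say how they were assigned. The part of length and of pseudogene copies in being named was not tested.

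**Figure D3:**
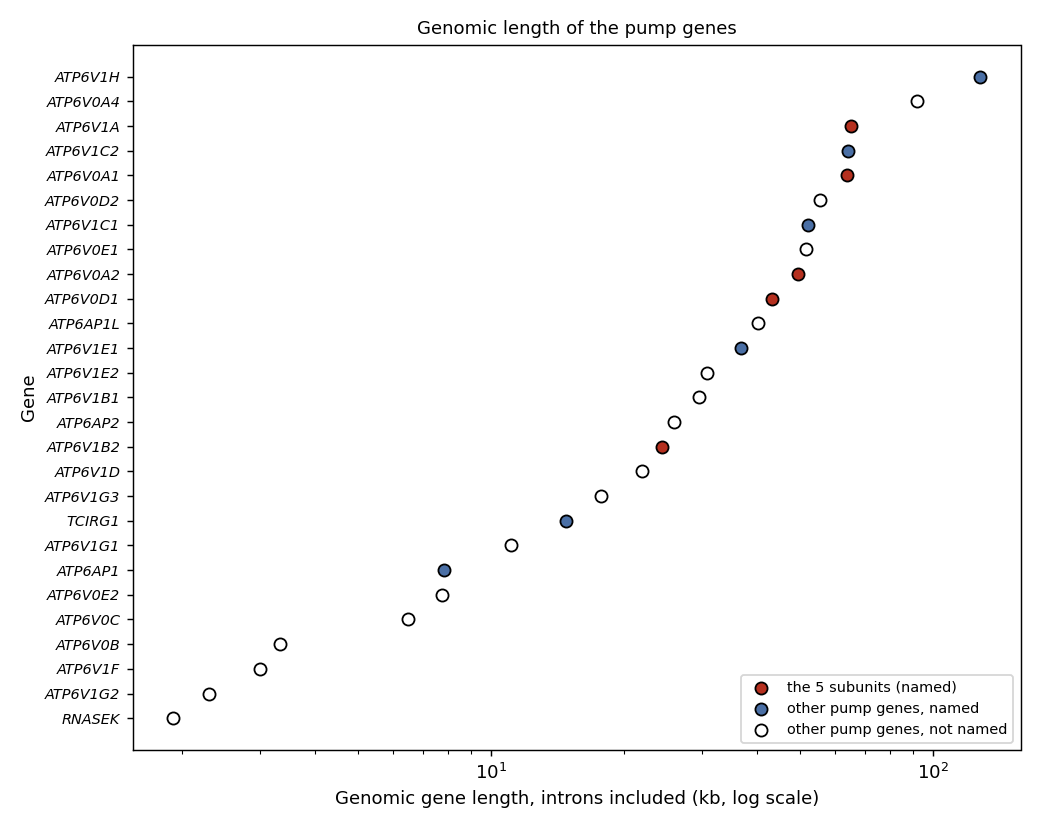
Genomic length of the 27 pump genes in kb on a log axis, ordered by length; red points are the 5 subunits, blue points other named genes and open points unnamed genes. The 5 subunits lie between 24.3 and 65.0 kb, while the 6 shortest genes are all unnamed.

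The share of partners named varied by list. The lists are short and were chosen with earlier results of these data known, so nothing is read from the differences between them. Neither VMA21 nor TMEM199 nor CCDC115, the 3 factors that assemble V0 in the endoplasmic reticulum, was named. Of 7 genes linked to joining or parting the sectors, DMXL2 was named, in Rab GTPase binding, and MEAK7 was found under its older symbol TLDC1, which makes 2 of 7. DMXL1, WDR7, ROGDI, NCOA7 and OXR1 were not named there. Of 10 genes that dock mTORC1 on the lysosome beside the pump, RRAGA was the only one named, with KEGG Autophagy - animal among its 6 terms. The 5 LAMTOR genes, RRAGB, RRAGC, RRAGD and the amino acid sensor SLC38A9 were not. Of 11 ion transporters that share these membranes, 7 were named: the chloride and proton exchangers CLCN4, CLCN5, CLCN6 and CLCN7, the potassium and proton channel TMEM175, and the two-pore channels TPCN1 and TPCN2. Of these 7, 6 were entries of endosome membrane, the term that held the V0 subunits, the exception being CLCN7. It was the only term of TMEM175 and of TPCN1. The transporters were listed for sharing these membranes, so nothing is read from the shared term. CLCN3, OSTM1, MCOLN1 and SLC9A9 were not named.

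**Figure D4:**
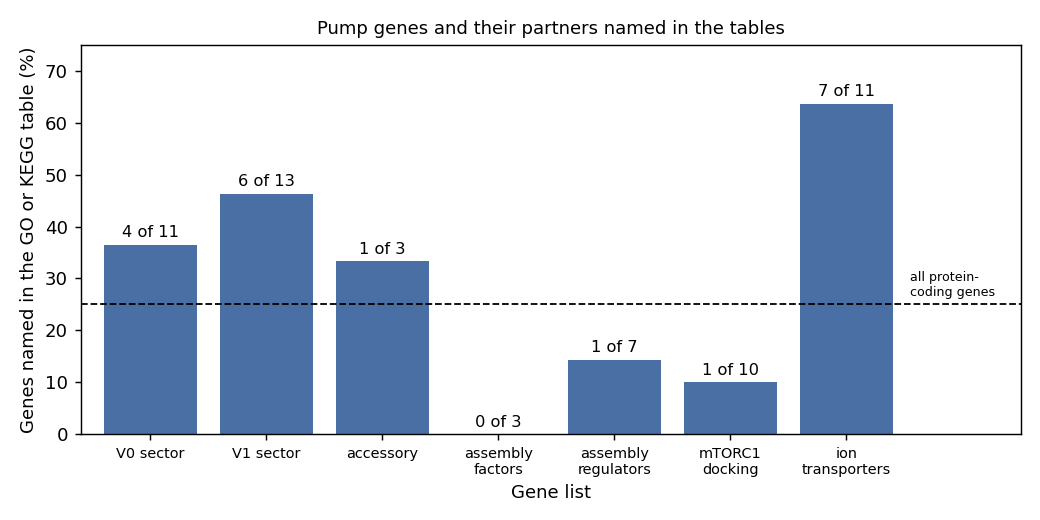
Bars give the percent of each gene list named in the GO or KEGG table by current symbol, with counts above, and the dashed line the 25.0% of all protein-coding genes. The V0 and V1 bars include the 5 subunits, which were chosen for being named; ion transporters stand at 7 of 11 and mTORC1 docking genes at 1 of 10.

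The remaining table sets symbols beside families of RNA-binding proteins, and none of the 5 subunits is in it. This table held 19.8% of the symbols of the GO and KEGG tables and 5.94% of all protein-coding genes, so 0 of 5 lies near the background. TCIRG1 was the only pump gene in it, paired with all 4 families: RRM, CSD, PUF and a family that joins the CCHC zinc finger with RRM. CLCN6 and DMXL1 were paired with the same 4, as were 838 of the 1348 symbols. DMXL1 was named in this table alone.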

How the data were processed

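The tables are those the authors deposited for HL-60 RNA immunoprecipitation with 2 libraries and, per the submitters' processing notes, the build hg38. Aligner, peak caller, thresholds and use of IgG are not given in the sources used here, and depth is unknown. Per the file headers, each GO or KEGG term has a count of entries and of background genes, a rich factor (a ratio of shares, a fold), a p-value and a corrected p-value, all the authors' own. They were copied and not recomputed. The family table has symbols and family names and no number.

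Entries were split into identifier and symbol with pandas 2.3.3; the parsing and the intervals (SciPy 1.17.1) were tested on simulated data. Genes were matched by exact symbol; RefSeq GRCh38.p14 gave positions, lengths and pseudogenes. Named terms and genes followed a fixed rule: all pump, partner and marker genes of the lists, and all terms naming one of the 5; 1 further ion transporter of the planned list was left out and is not reported here. The members and lists were chosen with earlier results of these data known. A planned comparison of the protein sequences was not analysed here. Alternatives were older symbols, identifiers, each table alone, only terms with a corrected p under 0.05, the pump list without tissue isoforms and a background of any biotype. With 1 library per group no test between groups was made.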

Additional observations from a re-analysis of the deposited data

How the results depend on the processing

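With only terms under a corrected p of 0.05, ATP6V0A1 kept 3 of 7 terms, ATP6V0A2 1 of 3, ATP6V0D1 2 of 6 and ATP6V1B2 2 of 5; ATP6V1A kept 2 of 3, within 1.5 times. Matching entries by identifier changed no count of terms. The 5 subunits and 6 other pump genes were named in the GO table alone, in the KEGG table alone, with older symbols and by RefSeq identifier, the last chosen after seeing the data. In the family table alone they were 0 and 1. By distinct identifier the share fell outside its interval by symbol in 5 of 13 terms: cytosol (44.3%), ATP binding (53.2%), membrane (48.3%), perinuclear region of cytoplasm (41.5%) and intracellular membrane-bounded organelle (40.0%). Without tissue isoforms 50.0% of 20 pump genes were named. Over genes of any biotype the background was 8.50% in place of 25.0%. No paired analysis was possible because each group has 1 library and the tables hold no value per library; for the same reason no replicate could be left out.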

Other observations

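TCIRG1, the a3 subunit, was the only pump gene in 3 terms that name none of the 5 subunits: macroautophagy, nucleus and protein localization to organelle. In the authors' deposited table macroautophagy held 90 entries out of 93 background genes, at a corrected p of 2.58e-06. Those 90 entries stood on 37 distinct identifiers, 39.8% of the term (exact Clopper-Pearson 95% interval 29.8 to 50.5%), with 51 symbols on the identifier of AMBRA1. Protein localization to organelle held 16 out of 18 there, and its corrected value in the authors' deposited table was 0.712. ATP6V1H was the only pump gene in ATPase activity, a term that named neither ATP6V1A nor ATP6V1B2. In the authors' deposited table that term held 145 entries out of 229 background genes, with 0.00498 as its corrected p.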
